A study of Mus musculus with 12 samples.

Results

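The proteasome genes were described in livers of male mice, wild type or Nrf2 null, 6 hours after gavage with vehicle or with CDDO-Im. The members were the genes with symbols Psma, Psmb, Psmc, Psmd or Psme followed by a number, plus Pomp. Each was read at a probe set whose annotation names only that gene and, where a gene had several, at the one with the highest mean over the 12 arrays. This gave 43 genes of the 18193 measured, from 89 probe sets. Of these genes 21 had 1 probe set and 22 had several. The rule used no comparison between groups.

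Biotin-labelled liver RNA was read on one-colour Affymetrix arrays, 3 for each of 4 groups. The groups were wild type with vehicle (0 uM/kg), wild type with CDDO-Im (30 uM/kg, the unit as the labels give it), Nrf2 null with vehicle, and Nrf2 null with CDDO-Im at that dose. CDDO-Im is a synthetic triterpenoid that activates Nrf2, a transcription factor encoded by Nfe2l2. The labels used here give no strain or age and do not say which stretch of Nfe2l2 the null allele lacks. Whether the 3 arrays of a group were 3 animals is not given either, and the p-values below therefore reflect a spread that may be technical. The titles of the 6 vehicle samples carry a mark, a 2 in brackets, that the CDDO-Im titles lack, and whatever this mark stands for is confounded with treatment: their effects cannot be told apart.

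The proteasome degrades proteins tagged with ubiquitin. Its core, the 20S particle, stacks rings of alpha subunits, which gate the entry, and beta subunits, of which Psmb5, Psmb6 and Psmb7 carry the catalytic sites. The 19S cap binds, unfolds and deubiquitinates substrates, and PA28 and PA200 are alternative caps. Interferon replaces the catalytic subunits with Psmb8, Psmb9 and Psmb10 to form the immunoproteasome. Transcription of the constitutive subunits is known to respond to Nfe2l1 (Nrf1) when the proteasome is impaired, and Nrf2 activators have been linked to raised subunit expression in liver.

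Nfe2l2 levels followed the labels, at 8.37 to 9.14 on the 6 wild type arrays and 4.44 to 4.96 on the 6 Nrf2 null arrays (log2 intensity). The hepatocyte markers had a summed level of 16.53 to 16.73 on all arrays. Of 11 listed markers of pancreatic acinar cells, 8 were measured. Their summed level was 13.88 on wild type vehicle replicate 3 and 12.34 on Nrf2 null vehicle replicate 2, against 9.78 to 10.40 on the other 10 arrays. None of the 8 was dim by its mean over 12 arrays, a mean that includes the 2 arrays with the high sums. These arrays are named beside the results they touch. In whole liver, fewer cells of a type and less RNA per cell cannot be told apart.

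Known Nrf2 targets rose with CDDO-Im in wild type liver, and among the proteasome genes 1 did. Nqo1, a quinone reductase, was at 5.12, 5.06 and 5.19 with vehicle and at 7.15, 7.18 and 7.26 with CDDO-Im on the wild type arrays. Gclc, Gclm, Srxn1 and Txnrd1, genes of glutathione synthesis and of peroxiredoxin and thioredoxin reduction, rose with Nqo1. The rises of these 5 control genes were 0.94 to 2.97 on the log2 scale (limma, each with a Benjamini-Hochberg adjusted p under 0.05). With CDDO-Im in Nrf2 null liver Gclc also rose, by 1.23 (adjusted p = 0.0171, a call that held under 18 of 23 alternatives), Srxn1 fell by 0.62 (adjusted p = 0.00405), and the other 3 were not called. Among the 43 proteasome genes, 1 rose in wild type liver, Psmd5, and 0 fell. Over all genes 1.82% were called in that comparison and 0.978% were called higher, so 1 of 43 is near the background. At an unadjusted p under 0.05, 7 members were higher and 3 lower, against 1109 and 1374 of all 18193 genes. The differences of the 43 members ran from -0.46 to 0.50 with a median of -0.04, and the median over all genes was 0.01. The 95% interval of every member lay within 1 log2 unit of no change in wild type. That of 39 of 43 lay within 0.58, which is 1.5-fold. Of all genes, 96% and 86.5% had intervals within these bounds.

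**Figure D1:**
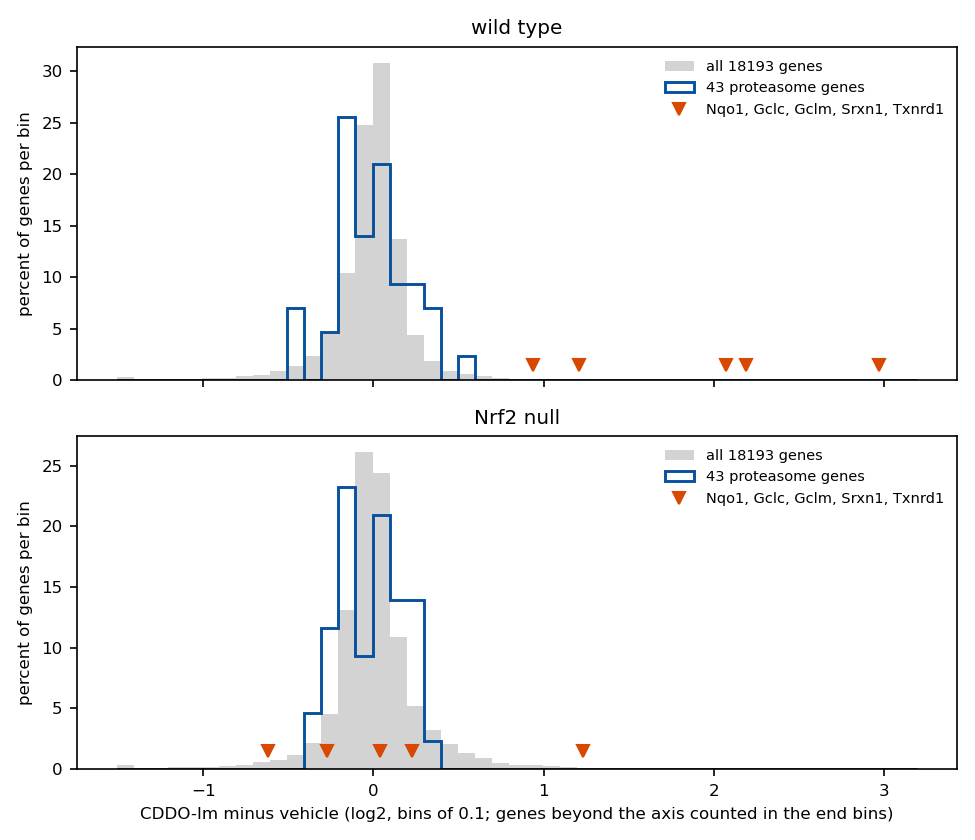
CDDO-Im minus vehicle on the log2 scale (x axis, bins of 0.1) against the percent of genes per bin (y axis) in wild type and Nrf2 null liver, for all 18193 genes (grey), the 43 proteasome genes (blue outline) and 5 Nrf2 target genes (triangles, at an arbitrary height). The proteasome genes lie between -0.46 and 0.50 in wild type, while the target genes lie between 0.94 and 2.97.

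Of the 43 members, 0 were called in Nrf2 null liver between CDDO-Im and vehicle, against 5.90% of all genes. At an unadjusted p under 0.05, 4 members were higher and 5 lower, against 1947 and 1581 of all 18193 genes. The smallest adjusted p among the members was 0.104. The differences ran from -0.37 to 0.32 with a median of 0.01. All 43 intervals lay within 1 log2 unit, as did 94.8% of those over all genes. For genotype, 0 of 43 were called with vehicle (background 0.390%) and 0 of 43 with CDDO-Im (background 1.45%). Unadjusted, 4 members passed 0.05 with vehicle, all lower in Nrf2 null, where 940 of all 18193 genes were higher and 1470 lower. With CDDO-Im 1 member was higher and 5 lower, against 1113 and 951 of all genes. The difference between the 2 responses to CDDO-Im, tested as an interaction, was called for 0 of 43 members against 0.137% of all genes. Psmb5 was the 1 member under an unadjusted 0.05, where 1291 of all 18193 genes passed. For the interaction 41 of 43 intervals lay within 1 log2 unit, against 93.9% over all genes.

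**Figure D2:**
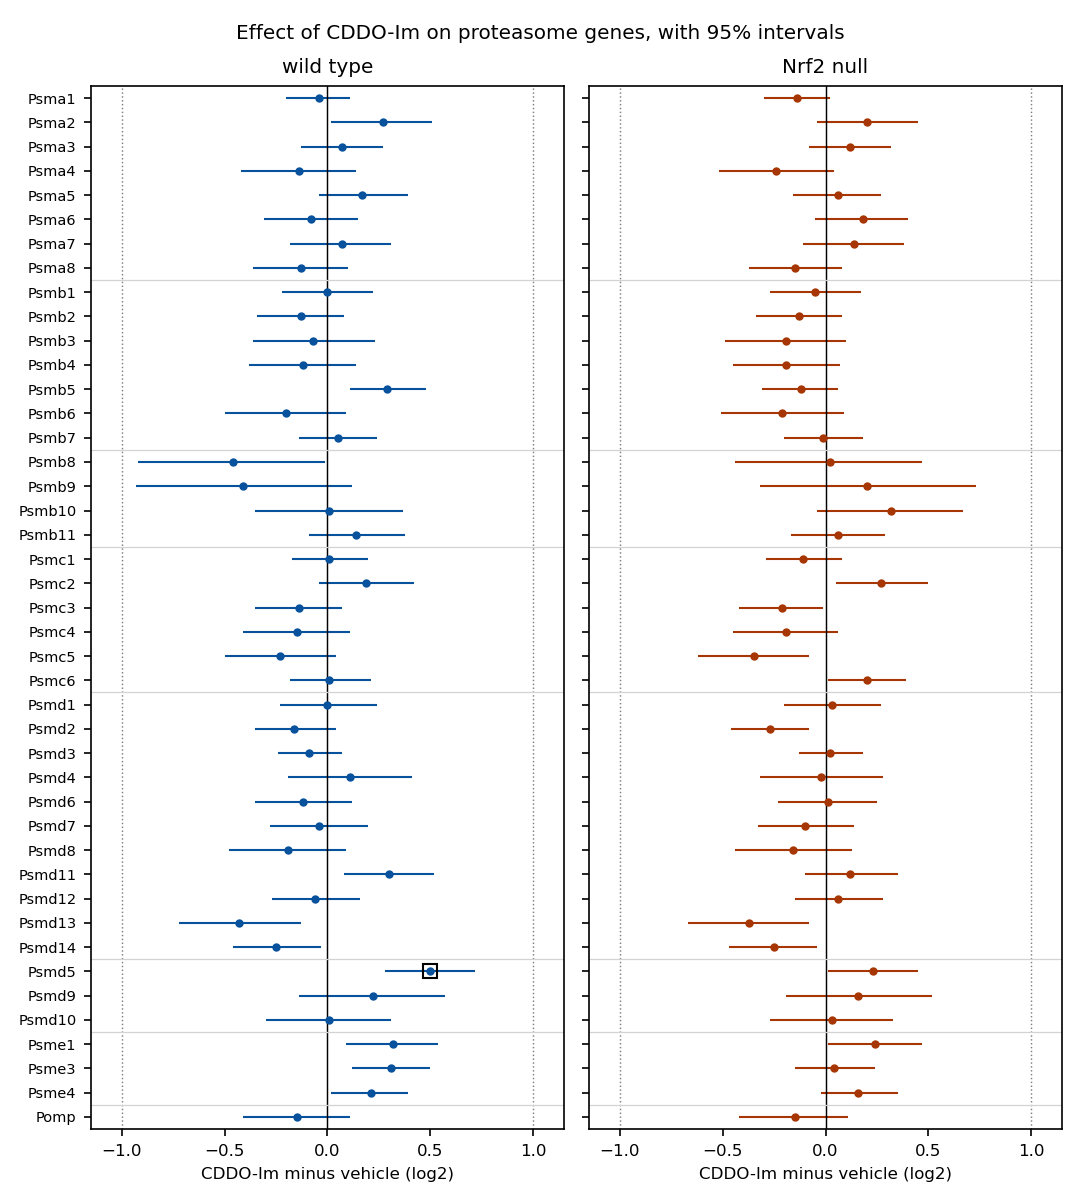
CDDO-Im minus vehicle (log2) for each proteasome gene in wild type (left) and Nrf2 null liver (right), points with 95% intervals from the limma fit over 12 arrays; dotted lines mark 1 log2 unit and the square marks the called gene. Psmd5 in wild type, at 0.50, is the called member, and no interval reaches 1 log2 unit in either direction.

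Psmd5 is a chaperone of 19S assembly that holds ATPase subunits before the cap is complete. It was at 8.39, 8.40 and 8.69 on the wild type vehicle arrays and at 9.14, 8.95 and 8.89 on the wild type CDDO-Im arrays. Nrf2 null arrays gave 8.36, 8.51 and 8.48 with vehicle and at 8.57, 8.73 and 8.75 with CDDO-Im. The arrays with CDDO-Im were above those with vehicle in both genotypes, and all 3 wild type CDDO-Im arrays were above all 3 Nrf2 null CDDO-Im arrays. In wild type Psmd5 rose by 0.50 ± 0.10 (SE, n = 3 per group), a 1.42-fold rise, with a limma adjusted p of 0.0298. In Nrf2 null liver the difference was 0.23 ± 0.10 (adjusted p = 0.236). The 2 responses differed by 0.27 with an interval of -0.04 to 0.58 (adjusted p = 0.771), so a difference in response between genotypes was not shown.

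The call for Psmd5 held under 16 of 23 alternative settings, with differences of 0.43 to 0.60. It was lost when wild type vehicle replicate 1 (adjusted p = 0.165), wild type vehicle replicate 2 (0.152), or wild type CDDO-Im replicate 1 (0.0996), 2 (0.0875) or 3 (0.053) was left out, and when only the wild type arrays were fitted (0.133), and it did not pass an adjusted p of 0.01. Without both arrays with acinar transcripts the difference was 0.60 (adjusted p = 0.00387). Several of the 23 settings could not change the difference. Psmd5 has 1 probe set, and leaving out an Nrf2 null array left the wild type difference at 0.50. The 250 bases before the start of Psmd5 are shown because it is the member called. They were chosen after its values were seen, come from RefSeq on GRCm38.p6, and hold none of the 3 patterns searched below on either strand.
Psmd5, chr2:34870963-34871212, minus strand: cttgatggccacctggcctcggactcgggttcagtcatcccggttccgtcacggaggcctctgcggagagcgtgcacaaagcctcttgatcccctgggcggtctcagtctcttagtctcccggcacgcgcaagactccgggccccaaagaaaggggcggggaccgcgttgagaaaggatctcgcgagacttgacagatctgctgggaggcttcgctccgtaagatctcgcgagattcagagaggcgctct

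Psmd9 and Psmd10 (gankyrin) are the other 19S chaperones named in the Psmd series. Psmd9 was at 9.04, 9.17 and 9.35 with vehicle and 9.46, 9.35 and 9.41 with CDDO-Im in wild type, a difference of 0.22 (adjusted p = 0.65). Its Nrf2 null vehicle arrays spread from 8.60 to 9.43, and the highest of them was replicate 2, which carries acinar transcripts. Without both such arrays the Nrf2 null difference of Psmd9 went from 0.16 (adjusted p = 0.672) to 0.40 (adjusted p = 0.0318). Psmd10 lay between 6.32 and 6.85 on all 12 arrays, and its differences in the 2 genotypes were 0.01 and 0.03.

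The alternative caps were higher with CDDO-Im on every wild type array, by amounts that did not pass the adjusted test. Psme1, the alpha subunit of PA28, was at 10.22, 10.25 and 10.28 with vehicle and at 10.66, 10.55 and 10.48 with CDDO-Im. Psme3 (PA28 gamma), the nuclear form of PA28, was at 7.77, 7.86 and 7.66 and then at 8.11, 8.02 and 8.10. Psme4 (PA200), a nuclear cap, was at 9.95, 9.99 and 9.70 and then at 10.01, 10.18 and 10.06. In each of the 3 genes the groups did not overlap. Such a separation, higher with CDDO-Im, was seen in 7 of 43 members and in 8.42% of all genes.

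The wild type differences of the caps were 0.32 for Psme1 (adjusted p = 0.175), 0.31 for Psme3 (adjusted p = 0.11) and 0.21 for Psme4 (adjusted p = 0.295). The Nrf2 null differences were 0.24, 0.04 and 0.16. With CDDO-Im, Nrf2 null differed from wild type by -0.26, -0.23 and -0.26 (adjusted p = 0.341, 0.318 and 0.198). Arrays again did not overlap in any of the 3 genes. Such a separation, lower in Nrf2 null, was seen in 7 of 43 members and in 1422 of all 18193 genes. With vehicle the genotype differences were -0.19, 0.04 and -0.22 (adjusted p = 0.484, 0.892 and 0.284). The interactions were 0.07, 0.27 and 0.04, and none was called. The median wild type difference of the 3 caps was 0.31, and it was 0.33 after quantile normalization and 0.30 with arrays centred on their medians. Without both arrays with acinar transcripts, Psme4 differed by 0.12 in wild type and Psme1 and Psme3 by 0.33 and 0.26. With array weights Psme1 (0.33, adjusted p = 0.0258) and Psme3 (0.30, adjusted p = 0.0221) passed in wild type.

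Psme4 was read by several probe sets, and these did not give 1 size. The brightest, used above, gave 0.21 in wild type, and the other bright ones gave 0.27 and 0.48 ± 0.09. The last passed when every probe set was tested on its own (limma, adjusted p = 0.0292), and in Nrf2 null liver it differed by 0.06. The partner of Psme1 in PA28, Psme2, is read on this array only by a probe set whose annotation also names Psme2b, so it is no member. That probe set had means of 9.54 ± 0.11, 9.67 ± 0.10, 9.62 ± 0.23 and 9.62 ± 0.08 (SD, n = 3) in wild type with vehicle and CDDO-Im and in Nrf2 null with vehicle and CDDO-Im.

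The constitutive beta ring held 0 called members of 7 in each comparison. Psmb5, which carries the chymotrypsin-like site and is the target of bortezomib, was at 10.76, 10.83 and 10.68 with vehicle and at 11.21, 11.01 and 10.94 with CDDO-Im in wild type. Nrf2 null liver had 10.84, 11 and 10.96 with vehicle and at 10.73, 10.88 and 10.81 with CDDO-Im. The wild type arrays with CDDO-Im were all above those with vehicle, and the Nrf2 null groups overlapped. The differences were 0.29 ± 0.09 in wild type (adjusted p = 0.12) and -0.12 ± 0.09 in Nrf2 null (adjusted p = 0.494). With array weights the wild type difference passed (0.28, adjusted p = 0.0319). The interaction of 0.42, with an interval of 0.15 to 0.68, had the smallest adjusted p among the members, 0.377. Without both arrays with acinar transcripts the interaction was 0.35 (adjusted p = 0.648).

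Psmb6, the caspase-like subunit, was at 10.58, 10.56 and 10.16 in wild type with vehicle and 10.54, 10.14 and 10 with CDDO-Im, and these overlapped. Nrf2 null arrays gave 10.57, 10.66 and 10.60 and then at 10.34, 10.47 and 10.39. The differences were -0.20 and -0.21. Psmb7, the trypsin-like subunit, lay between 11.35 and 11.66 on all arrays, with differences of 0.05 and -0.01. Psmb1, Psmb2, Psmb3 and Psmb4, the structural members of the ring, differed by -0.13 to 0.00 in wild type and by -0.19 to -0.05 in Nrf2 null.

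All 7 beta ring genes had a lower mean with CDDO-Im in Nrf2 null liver, by -0.21 to -0.01 with a median of -0.13, where the median over all genes was 0.00. Of all 18193 genes, 9359 had a lower mean there. The beta ring count was 6 of 7 with arrays centred on their medians and 6 of 7 without Nrf2 null vehicle replicate 2. All 7 beta ring genes also had a higher mean in Nrf2 null than in wild type with vehicle, by 0.05 to 0.19. So did 10060 of all 18193 genes. These 2 comparisons share the Nrf2 null vehicle arrays, and genes read on the same arrays are not separate observations. The count of higher means in the beta ring was 6 of 7 without Nrf2 null vehicle replicate 2. It was 4 of 7, with a median of 0.02, without both arrays with acinar transcripts. For the interaction the values of the 7 genes lay between 0.00 and 0.42, where 9389 of all 18193 genes were positive. Positive interactions fell to 3 of 7 without Nrf2 null vehicle replicate 2, to 2 of 7 without wild type CDDO-Im replicate 1, and to 5 of 7 with arrays centred on their medians.

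The immunoproteasome subunits Psmb8 and Psmb9 had the largest standard errors of a difference among the 43 genes, 0.21 and 0.24. Psmb8, which replaces Psmb5, was at 9.36, 9.44 and 8.85 in wild type with vehicle, at 8.55, 9.04 and 8.66 with CDDO-Im, at 8.54, 8.46 and 9.19 in Nrf2 null with vehicle and at 8.91, 8.57 and 8.77 with CDDO-Im. The wild type groups overlapped through vehicle replicate 3, the array with the most acinar signal. The wild type difference was -0.46 with an interval of -0.92 to -0.01 (adjusted p = 0.354), and it was -0.65 (adjusted p = 0.0752) without both arrays with acinar transcripts and -0.61 (adjusted p = 0.0269) with array weights. In Nrf2 null liver it was 0.02.

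Psmb9, which replaces Psmb6, was at 8.75, 8.49 and 8.25 and then at 8.21, 8.07 and 8.0 in wild type, and at 7.45, 7.77 and 8.27 and then at 8.22, 7.48 and 8.40 in Nrf2 null. Its wild type arrays did not overlap, in the lower direction, which held for 4 of 43 members and 8.18% of all genes. The differences were -0.41 ± 0.24 in wild type (adjusted p = 0.533) and -0.67 ± 0.24 between genotypes with vehicle (adjusted p = 0.257). With array weights the genotype difference with vehicle passed for Psmb8 (-0.73, adjusted p = 0.0193) and Psmb9 (-0.88, adjusted p = 0.0239). Psmb10, which replaces Psmb7, was at 9.59, 9.52 and 9.38 and then at 9.42, 9.64 and 9.44 in wild type. Nrf2 null liver had 9.0, 9.17 and 9.71 and then at 9.51, 9.46 and 9.86.

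Psmb10 differed by 0.01 in wild type and by 0.32 in Nrf2 null (adjusted p = 0.331). Without Nrf2 null vehicle replicate 3, on which Psmb8, Psmb9 and Psmb10 were each the highest of their group, the Nrf2 null difference of Psmb10 was 0.52 (adjusted p = 0.042) and that of Psme1 was 0.37 (adjusted p = 0.029). The summed Kupffer cell markers, from resident macrophages, ranged from 10.90 to 12.01 in wild type with vehicle, 11.44 to 12.14 in wild type with CDDO-Im, 10.45 to 11.41 in Nrf2 null with vehicle and 11.38 to 11.43 in Nrf2 null with CDDO-Im. Of 8 listed, 7 were measured and 0 were dim. The lymphocyte markers, with 7 of 8 measured, lay between 9.28 and 9.43 on all arrays. The part of such cells in the immunoproteasome values was not tested. Psmb11, the thymoproteasome subunit, had a mean of 5.65, under the typical array median of 5.79, and its differences in the 2 genotypes were 0.14 and 0.06.

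**Figure D3:**
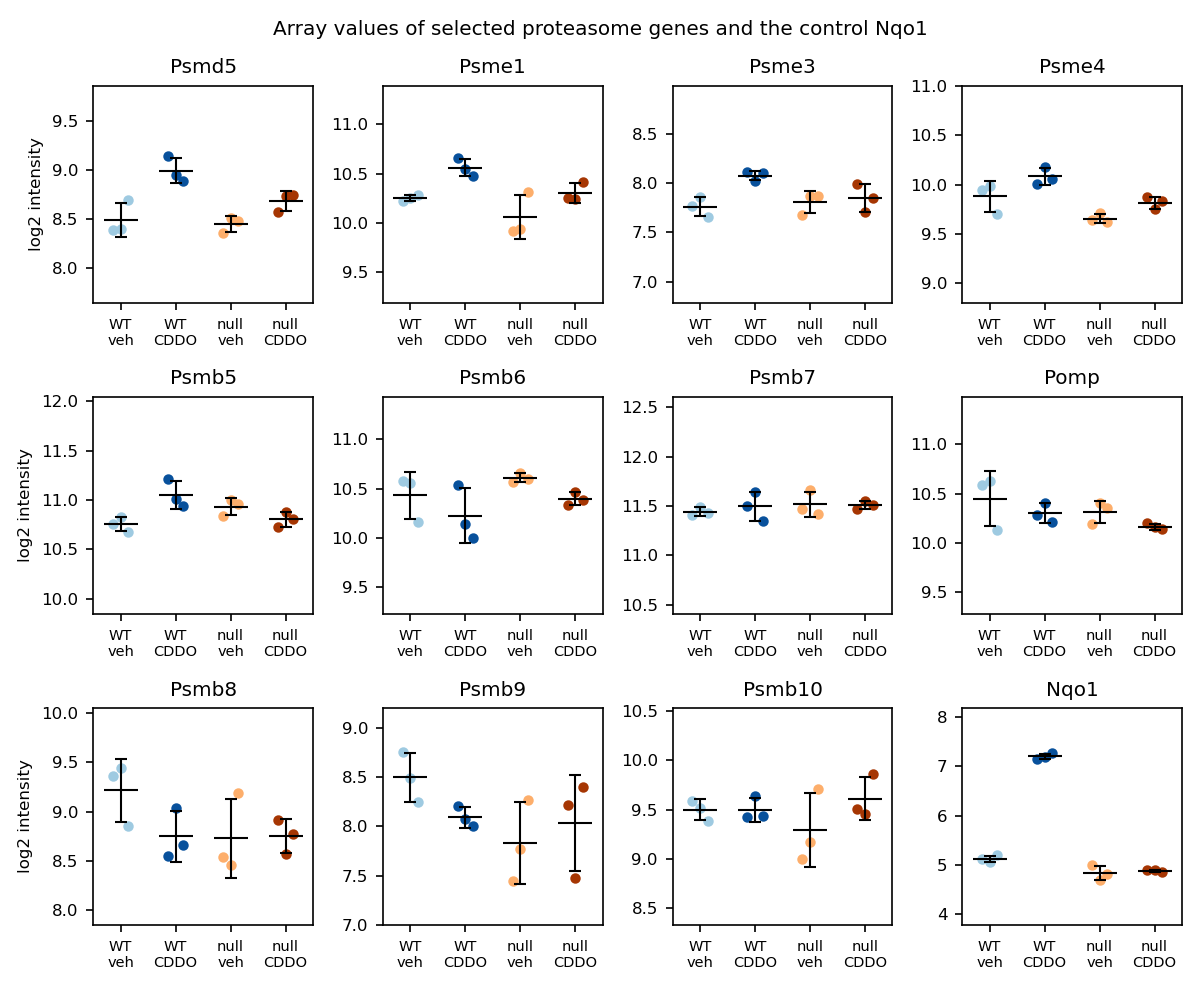
Log2 intensity on each array (points) with the group mean and SD (black, n = 3) for 11 proteasome genes and the control Nqo1, in wild type (WT) and Nrf2 null liver with vehicle (veh) or CDDO-Im; panels of proteasome genes span 2.2 log2 units and the Nqo1 panel spans 4.4. Psmd5 and the caps Psme1, Psme3 and Psme4 are higher with CDDO-Im on all wild type arrays, and Psmb8 to Psmb10 overlap widely between the Nrf2 null groups.

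The alpha ring held 0 called members of 8. Psma2 was at 10.11, 10.17 and 10.20 with vehicle and at 10.64, 10.41 and 10.23 with CDDO-Im in wild type, a difference of 0.27 (adjusted p = 0.311) with no overlap. In Nrf2 null liver it was at 10.08, 10.26 and 10.03 and then at 10.15, 10.47 and 10.36, a difference of 0.20. Psma5 differed by 0.17 and 0.06 in wild type and Nrf2 null. The other constitutive alpha genes, Psma1, Psma3, Psma4, Psma6 and Psma7, differed by -0.14 to 0.07 in wild type and -0.24 to 0.18 in Nrf2 null, and none had a wild type adjusted p below 0.748. Psma8, the testis form of Psma7, had a mean of 5.18, also under the array median.

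The 6 ATPases of the 19S cap, which unfold the substrate, had wild type differences of -0.23 to 0.19 and none was called. Psmc5 was at 10.09, 10.23 and 10.09 and then at 10.18, 9.91 and 9.62 in wild type. In Nrf2 null liver it was at 10.15, 10.44 and 10.39 with vehicle and at 10.01, 10 and 9.93 with CDDO-Im, and there the groups did not overlap. The Nrf2 null difference was -0.35 ± 0.12 (adjusted p = 0.133), and it was -0.41 (adjusted p = 0.0424) after quantile normalization. Without both arrays with acinar transcripts it was -0.29 (adjusted p = 0.33). Psmc2 went the other way, by 0.19 in wild type and 0.27 in Nrf2 null (adjusted p = 0.163). Psmc3 differed by -0.14 and -0.21.

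Psmc3 and Psmc5 have a single probe set. The other bright probe set of Psmc2 gave 0.06 in wild type and 0.02 in Nrf2 null. A second probe set of Psmc4 differed by -0.66 ± 0.14 in Nrf2 null liver (limma over every probe set, adjusted p = 0.0246), where the one used here gave -0.19. For Psmc6 the probe set used gave 0.01 in wild type and 0.20 in Nrf2 null, while the dimmer ones gave -0.31 and -0.56 in wild type and -0.22 and -0.49 in Nrf2 null. The members had 46 further probe sets, 26 of them not dim, and these of Psme4 and Psmc4 were the 2 called in any comparison.

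Of the 11 non-ATPase subunits of the cap, 0 were called in any comparison. Psmd13, a scaffold subunit, was at 8.84, 8.89 and 8.59 with vehicle and 8.64, 8.26 and 8.14 with CDDO-Im in wild type. In Nrf2 null liver it was at 8.63, 8.98 and 8.91 and then at 8.40, 8.53 and 8.47, with no overlap. The differences were -0.43 ± 0.13 (adjusted p = 0.15) and -0.37 ± 0.13 (adjusted p = 0.135). Without wild type vehicle replicate 3 the wild type value was -0.51 (adjusted p = 0.047), with array weights it was -0.49 (adjusted p = 0.0177), and without both arrays with acinar transcripts the Nrf2 null value was -0.30 (adjusted p = 0.291).

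Psmd14, the deubiquitinase of the cap, was at 10.05, 10.05 and 10 and then at 9.99, 9.69 and 9.68 in wild type, and at 10.09, 10.37 and 10.12 and then at 9.89, 9.94 and 9.99 in Nrf2 null. The arrays did not overlap in either genotype, and the differences were -0.25 in each (adjusted p = 0.273 and 0.166). Without both arrays with acinar transcripts they were -0.26 in wild type (adjusted p = 0.184) and -0.16 in Nrf2 null (adjusted p = 0.469). Psmd2, which receives ubiquitin-like domains of shuttle proteins, differed by -0.16 in wild type and by -0.27 in Nrf2 null, where its adjusted p of 0.104 was the smallest of the members. It passed there after quantile normalization (-0.32, adjusted p = 0.0184) and with array weights (-0.31, adjusted p = 0.0373). Without both arrays with acinar transcripts the Nrf2 null difference of Psmd2 was -0.21 (adjusted p = 0.297). Psmd11 stood on the other side, at 11.12, 11.19 and 11.35 with vehicle and 11.74, 11.33 and 11.49 with CDDO-Im in wild type, a difference of 0.30 (adjusted p = 0.189), which passed with array weights (0.38, adjusted p = 0.0158). The ubiquitin receptor subunit Psmd4 differed by 0.11 and -0.02. Psmd1, Psmd3, Psmd6, Psmd7, Psmd8 and Psmd12 differed by -0.19 to 0.00 in wild type and by -0.16 to 0.06 in Nrf2 null.

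Across all members in Nrf2 null liver, 6 were higher and 8 lower with CDDO-Im without overlap, against 11.6% and 11.4% of all genes. Between genotypes, 3 were higher and 1 lower in Nrf2 null without overlap with vehicle (17.0% of all genes, either direction), and 1 was higher and 7 lower with CDDO-Im (16.8%). Pomp, the maturation factor of the core, was at 10.59, 10.63 and 10.13 and then at 10.28, 10.41 and 10.21 in wild type, and at 10.19, 10.41 and 10.35 and then at 10.20, 10.16 and 10.14 in Nrf2 null. Its difference was -0.15 in each genotype (adjusted p = 0.677 and 0.563), and wild type vehicle replicate 3 was the low array of its group. Without both arrays with acinar transcripts the wild type difference of Pomp was -0.31 (adjusted p = 0.0652).

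The constitutive core and cap genes moved together between arrays most in 2 groups, Nrf2 null vehicle and wild type CDDO-Im. There were 31 such genes that were not dim. Of these, 29 were highest in their group on Nrf2 null vehicle replicate 2 (93.5%, against 28.8% of 12354 other genes that were not dim). On wild type CDDO-Im, 26 were highest on replicate 1 (83.9%, against 38.4%) and 23 were lowest on replicate 3 (74.2%, against 36.9%). In wild type vehicle 19 were highest on replicate 2 (61.3%, against 33.7%), and in Nrf2 null CDDO-Im 17 on replicate 2 (54.8%, against 32.6%). The median deviation of the 31 genes from their means over 12 arrays was 0.14 on Nrf2 null vehicle replicate 2. It was 0.13 on wild type CDDO-Im replicate 1 and -0.18 on replicate 3. Medians were -0.01, 0.06 and -0.01 on the wild type vehicle arrays and -0.06, 0.02 and -0.04 on the Nrf2 null CDDO-Im arrays. Nrf2 null vehicle replicate 2 carries acinar transcripts, and on wild type vehicle replicate 3, with more of them, the median deviation was -0.01. Their part in the values was not tested. A gene's range over the 12 arrays was 0.22 to 0.84 among the 31, with a median of 0.50, and the median over all genes that were not dim was 0.52.

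**Figure D4:**
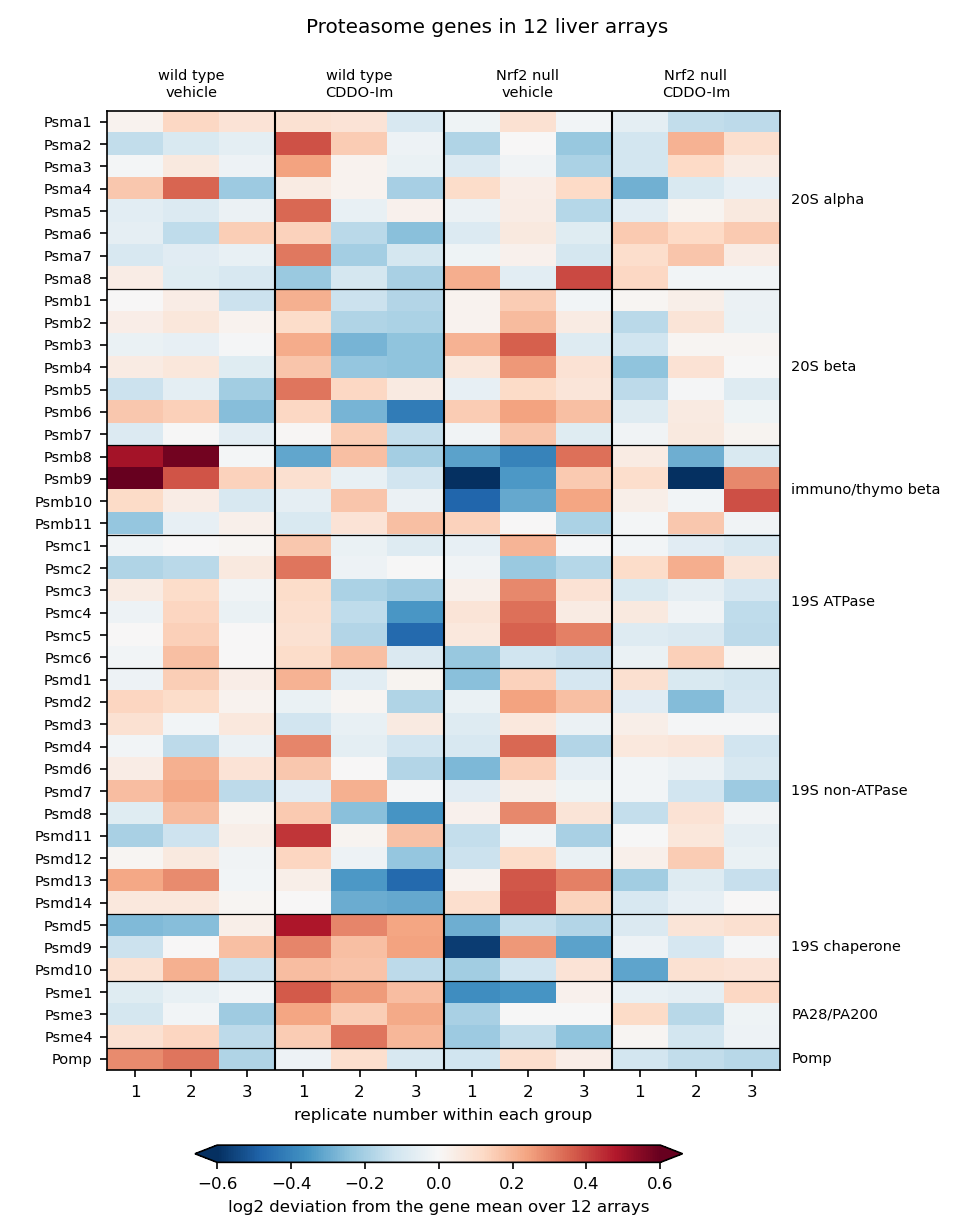
Log2 deviation of each of the 43 proteasome genes (rows, by subunit class) from its mean over the 12 arrays (columns, by group and replicate number); colours saturate at 0.6. Columns of the 20S and 19S genes shade together on wild type CDDO-Im replicate 1 (median 0.13) and replicate 3 (median -0.18) and on Nrf2 null vehicle replicate 2 (median 0.14).

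The letters TGACNNNGC, the core of the antioxidant response element that Nrf2 with a small Maf protein is known to bind, were looked for on both strands of the 250 bases before to 50 after each start. RefSeq (GRCm38.p6) gave 38 promoters for 36 of the 43 genes, and 6 held the letters, 15.8% against 12.4% of 32851 promoters of the same length. CCAAT, the NF-Y box found in many proteasome promoters, was in 14 (36.8%, against 37.4%), and GAAANNGAA, an interferon response pattern, was in 7 (18.4%, against 8.56%). A promoter may hold more than 1 pattern. A match is a run of letters, not a shown binding site. The upstream bases of Psmb5 are shown because it had the smallest adjusted p for the interaction among the members, with the match in capitals.
Psmb5, chr14:54617996-54618245, minus strand: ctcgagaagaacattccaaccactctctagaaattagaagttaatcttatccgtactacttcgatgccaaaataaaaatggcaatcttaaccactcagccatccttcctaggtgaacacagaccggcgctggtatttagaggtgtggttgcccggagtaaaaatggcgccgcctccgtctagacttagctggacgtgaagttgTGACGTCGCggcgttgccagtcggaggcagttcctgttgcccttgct

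The 5 windows below are from the 6 members that hold TGACNNNGC. They belong to those of the 6 with the smallest adjusted p for the interaction, 0.377 to 0.987. Psmd5, which holds no match, had a smaller value (0.771) than all of these but Psmb5. Each window is written 5′ to 3′ on the strand of the match, with the match in capitals and its distance before the start. They are shown so that the letters can be read beside the values of the genes. Psmb6 was the sixth member with a match.
Psmb5, chr14:54618026-54618050, minus strand, strand of the gene, 47 bases before: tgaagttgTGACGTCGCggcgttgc
Psmc6, chr14:45329589-45329613, minus strand, opposite to the gene, 227 bases before: gcaatgccTGACTTAGCtactggct
Psmd12, chr11:107479278-107479297, minus strand, opposite to the gene, 247 bases before: ggcaaatgTGACACAGCaga
Psme4, chr11:30771760-30771784, minus strand, opposite to the gene, 7 bases before: tcttctggTGACGCTGCagccgcag
Psmd9, chr5:123228151-123228175, plus strand, strand of the gene, 31 bases before: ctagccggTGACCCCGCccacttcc
In wild type liver the members printed differed by 0.29 (Psmb5), 0.01 (Psmc6), -0.06 (Psmd12), 0.21 (Psme4) and 0.22 (Psmd9), and none of these was called.

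Genes that supply or regulate the proteasome were taken from lists. Of 14 measured factors of core assembly or bound to the proteasome, 1 rose in wild type and 2 in Nrf2 null, and none fell. Over all genes 1.82% were called in wild type and 5.90% in Nrf2 null, in either direction. Zfand5, which binds the proteasome and raises its activity, rose by 0.42 in wild type (adjusted p = 0.0402) and by 0.43 in Nrf2 null (adjusted p = 0.0209). Ecpas, a proteasome adaptor, rose by 0.38 in Nrf2 null (adjusted p = 0.0453) and differed by 0.39 in wild type (adjusted p = 0.0713). The wild type call of Zfand5 held under 9 of 23 alternatives, its Nrf2 null call under 16, and that of Ecpas under 7.

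Of 11 measured genes of ubiquitin supply and shuttling, 0 were called in wild type (1.82% of all genes). In Nrf2 null liver, where 5.90% of all genes were called, 2 rose and 1 fell. These were Faf1, a cofactor of the unfoldase Vcp, at 0.42 (adjusted p = 0.0253), the shuttle Ubqln1 at 0.35 (adjusted p = 0.029), and Ufd1, another Vcp cofactor, at -0.51 (adjusted p = 0.0489). Between genotypes with CDDO-Im, where 1.45% of all genes were called, 2 were lower in Nrf2 null. They were the shuttle Ubqln2, by -0.70 (adjusted p = 0.00924), and Uba6, an enzyme that activates ubiquitin, by -0.41 (adjusted p = 0.0485). With vehicle 0 were called between genotypes, against 0.390% of all genes. Unadjusted, 7 passed 0.05 lower and 1 higher in Nrf2 null with vehicle, against 1470 and 940 of all 18193 genes. Ubqln2 and Uba6 differed there by -0.37 and -0.25 (adjusted p = 0.199 and 0.264). Their interactions were 0.34 and 0.17 (adjusted p = 0.741 and 0.87). The call for Ubqln2 held under all 23 alternatives run and that for Uba6 under 7. Those of Faf1, Ubqln1 and Ufd1 held under 18, 13 and 10.

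Among 8 measured regulators of proteasome genes, 2 rose in wild type, where 0.978% of all genes were called higher. Mafg, a small Maf partner of Nrf2 and Nfe2l1, was at 8.28, 8.27 and 8.10 with vehicle and at 8.77, 8.99 and 8.63 with CDDO-Im, a rise of 0.58 (adjusted p = 0.0244). It differed by 0.07 in Nrf2 null, and with CDDO-Im it was lower in Nrf2 null by -0.52 (adjusted p = 0.0453), while its interaction of 0.51 did not pass (adjusted p = 0.453). Maff, another small Maf, rose by 0.52 (adjusted p = 0.0367) in wild type and differed by 0.40 in Nrf2 null (adjusted p = 0.0543). The wild type calls of Mafg and Maff held under 15 and 13 of 23 alternatives, and the genotype call of Mafg under 9, with adjusted p-values of 0.0155 to 0.164. Nfe2l1 differed by -0.03 in wild type and 0.08 in Nrf2 null. Of 11 measured genes of MHC class I antigen processing and interferon signalling, 1 was called. This was in Nrf2 null liver, where 5.90% of all genes were called. The gene, B2m, the light chain of MHC class I, rose by 0.35 there (adjusted p = 0.0153) and differed by 0.23 in wild type (adjusted p = 0.125).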

How the data were processed

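The deposited table holds RMA values on a log2 scale, per the submitters' processing notes (no version), which were used unchanged. The file held 45101 probe sets. Array medians lay between 5.77 and 5.83, each array correlated with its group at 0.986 to 0.994, and a gene was called dim where its mean was under 5.79. Probe sets naming 1 gene (34945) were used, and gene names were matched by Entrez identifier to GRCm38.p6. The number of arrays limits the precision.

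All 18193 genes were fitted over the 12 arrays, with a mean for each group, by limma 3.58.1 in R 4.3.3 (two-sided, Benjamini-Hochberg over all genes, called at an adjusted p under 0.05), with 95% intervals from the same fit. The script was tested on simulated data.

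Members described in full were those called, the catalytic pairs, Pomp, and up to 3 of each subunit class with the smallest wild type adjusted p. Related genes were named where called, with Nfe2l1 and Nfe2l2. Psmd2, Psmd4, Psmd10 and other members outside that rule were given in short. Members and lists were chosen with earlier results of these data known. Alternatives changed probe sets, the filter, scaling, variance prior, array weights, arrays, threshold and a replicate block.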

Additional observations from a re-analysis of the deposited data

How the results depend on the processing

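The count of proteasome genes called was recomputed under 23 alternatives (22 for the interaction). In wild type it was 1, and it was 0 at an adjusted p under 0.01 and with only the compared arrays. It was 7 with array weights (Psmd5, Psme1, Psme3, Psmb5 and Psmd11 higher, Psmb8 and Psmd13 lower), against 11.1% of all genes. With 1 array left out it was 0 to 2, against 0.572% to 7.61% of all genes. In Nrf2 null it was 0, and it was 3 after quantile normalization (Psmc5, Psmd2 and Psmd13, all lower), against 6.95% of all genes. With array weights it was 1 (Psmd2), against 10.4% of all genes. Without both arrays with acinar transcripts it was 1 (Psmd9), against 6.35%. With 1 array left out it was 0 to 2, against 0.533% to 8.88% of all genes. Between genotypes with vehicle it was 0, and it was 0 with any 1 array left out. It was 3 with array weights (Psmb8 -0.73, Psmb9 -0.88, Psme4 -0.26), against 8.12% of all genes. Between genotypes with CDDO-Im and for the interaction it was 0 under all alternatives run. The causes were not tested. At an unadjusted p under 0.05 the member counts ranged from 6 to 17, 4 to 12, 1 to 10, 3 to 8 and 1 to 7 in the 5 comparisons. Over all 18193 genes the main counts were 2483, 3528, 2410, 2064 and 1291, and array weights gave 4626, 4355, 4840, 2314 and 2608.

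Counts over all genes depended on single arrays: 332 calls in wild type became 104 without wild type vehicle replicate 1 and 1385 without replicate 3, 1074 in Nrf2 null became 97 without Nrf2 null CDDO-Im replicate 3, and 71, 263 and 25 ranged over 19 to 219, 151 to 464 and 15 to 46. Array weights gave 2023, 1897, 1477, 386 and 89, a threshold of 0.01 gave 109, 97, 16, 123 and 15, and the compared arrays alone gave 110, 1193, 18 and 340. With arrays centred on their medians they were 229, 842, 40, 211 and 18, and after quantile normalization 414, 1265, 96, 353 and 29. Over every probe set they were 545, 1501, 101, 443 and 50, and without both arrays with acinar transcripts 1293, 1155, 117, 411 and 39.

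Arrays of different groups with the same replicate number were not more alike than arrays with other numbers. Of 18 same-number pairs, 4 had a correlation of deviations over 0.1, within -0.30 to 0.28. Of 36 pairs with other numbers, 13 did, within -0.4 to 0.47. With few arrays per group these correlations cannot decide whether the samples were paired, and a shared day or batch was not tested. With the replicate block the members called were 1 in wild type and 0 in the other 4 comparisons, Psmd5 had an adjusted p of 0.0495, and all-gene calls were 323, 1000, 80, 231 and 20.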
